A study of Homo sapiens with 5 samples.

Results

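The genes described here encode the proteins of the mitochondrial ribosome and were taken by symbol, MRPL for the large subunit and MRPS for the small one, each followed by a number and in some cases a letter. Of 28278 gene rows in the count table, 78 had such a symbol and 77 of these reached a sum of 20 counts over the 5 libraries, 49 MRPL and 28 MRPS genes. The symbol left out was MRPS24, with 1 and 3 counts in the ascorbic acid libraries and 4, 0 and 1 in the control libraries. A row for its read-through with URGCP had 0 counts in every library. How reads shared by overlapping genes were counted is not given, so these counts cannot be read as the expression of MRPS24. The libraries came from HEK293T, an established line of human embryonic kidney cells. One group of 2 libraries was from cells given ascorbic acid (vitamin C), and the other of 3 libraries was from control cells, whose genotype label reads WT. No dose is given in the labels, which give a seeding time of 24 h, then ascorbic acid for 24 h in a DNA methylation test or 36 h in an RNA methylation test, with fresh medium every 6 h. They do not say which duration the RNA libraries had, whether control cells had the same medium changes, or whether libraries of a group are separate cultures. The p-values therefore rest on library-to-library spread alone, part or all of which may be technical.

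Mitochondrial ribosomes sit in the matrix and translate the few messages encoded by mitochondrial DNA, all of which specify core subunits of the respiratory chain and ATP synthase. Their RNAs come from the mitochondrial genome, but every protein is encoded in the nucleus, made in the cytosol and imported. Some of the proteins descend from those of bacterial ribosomes and others are found only in mitochondria, and some have further enzymatic or regulatory roles.

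Total counts were 48015766 and 41739602 in the ascorbic acid libraries and 35106664 to 57212071 in the control libraries. Levels are given as CPM, the counts of a gene relative to its library total scaled by TMM, a factor computed from most genes that ran from 0.984 to 1.03. Among counts from 1 to 10, 71.3 to 75.9% were even, so a count may stand for less than 1 sequenced fragment. The labelled tissue is kidney, but 2 of 9 kidney markers, UMOD among them, had 0 counts in every library. Of the 4 kidney markers with enough counts to be tested, 1 was higher and 1 lower with ascorbic acid (edgeR adjusted p under 0.05). The 9 kidney markers together had 26.9 and 27.1 CPM with ascorbic acid and 31.8 to 34.2 CPM in controls, while 6 neural and embryonic markers typical of HEK293 cells had 1065 and 1099 CPM against 993 to 1024 CPM. Most of the kidney sum came from the 1 marker called lower. Most of the neural and embryonic sum also came from 1 marker. Per kb of transcript the highest of the 6 had 455 CPM and their median was 3.99 CPM, so the sum does not stand for the whole list. Summed fibroblast markers were 19.3 and 20.6 CPM with ascorbic acid and 10.4 to 10.6 CPM in controls (FAP at 0), and summed haematopoietic markers 2.82 and 2.85 against 2.16 to 2.43 CPM (CD3E and HBB at 0). Of the tested markers, 2 of 6 neural and embryonic and 2 of 3 fibroblast ones were higher with ascorbic acid (edgeR adjusted p under 0.05). Of 2 tested haematopoietic markers 0 passed. Among all tested genes 8.53% were higher. The part of these markers in the results on mitochondrial ribosomal protein genes was not tested.

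Most mitochondrial ribosomal protein genes differed little between the groups, and those that passed the test were mainly lower with ascorbic acid. MRPL55 was the member with the largest rise, 1.32-fold, and MRPS26 rose 1.19-fold. MRPL3, MRPL12, MRPL13, MRPL18 and MRPL22 of the large subunit and MRPS9, MRPS22, MRPS27 and MRPS34 of the small subunit fell, to between 0.844 and 0.898 of their control levels. The 11 genes that passed made up 14.3% of the 77 members, and edgeR called 14.3% of 15271 tested genes, so the share called was that of the background. By direction, 11.7% of the members were lower and 2.6% higher, against 5.76% lower and 8.53% higher among all tested genes. Genes with a mean level within the range of the members (9.69 to 316 CPM, 8936 genes) had 8.20% lower and 7.36% higher. In bulk libraries, fewer cells of a type and less RNA per cell cannot be told apart.

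All 77 members passed the filter on low counts, with 318 to 18345 counts in a library. The log2 fold change of ascorbic acid over control was below 0 in 58 members and above 0 in 19, and its median was -0.056. Over all tested genes the median was 0.0030 and 49.2% were below 0, and within the members' range of levels the median was -0.025 and 57.9% were below 0. Both ascorbic acid libraries lay below all control libraries in 27 members (35.1%), against 20.4% of tested genes, and above them in 6 members (7.79%), against 22.6%. In 37 members the ascorbic acid libraries differed from each other by more than the group means differed. The same count was not made over all tested genes, so whether 37 is high or low cannot be said. At an unadjusted p under 0.05 there were 25 members (32.5%), against 28.0% of all tested genes and 30.3% of those within the members' range of levels. DESeq2 called the same 11 members, against 13.2% of its tested genes (6.69% higher and 6.54% lower). A test against a fold of 1.2 called 0 members, against 1.87% of tested genes (1.80% higher and 0.0720% lower), so no member was shown to change by more than that.

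**Figure D1:**
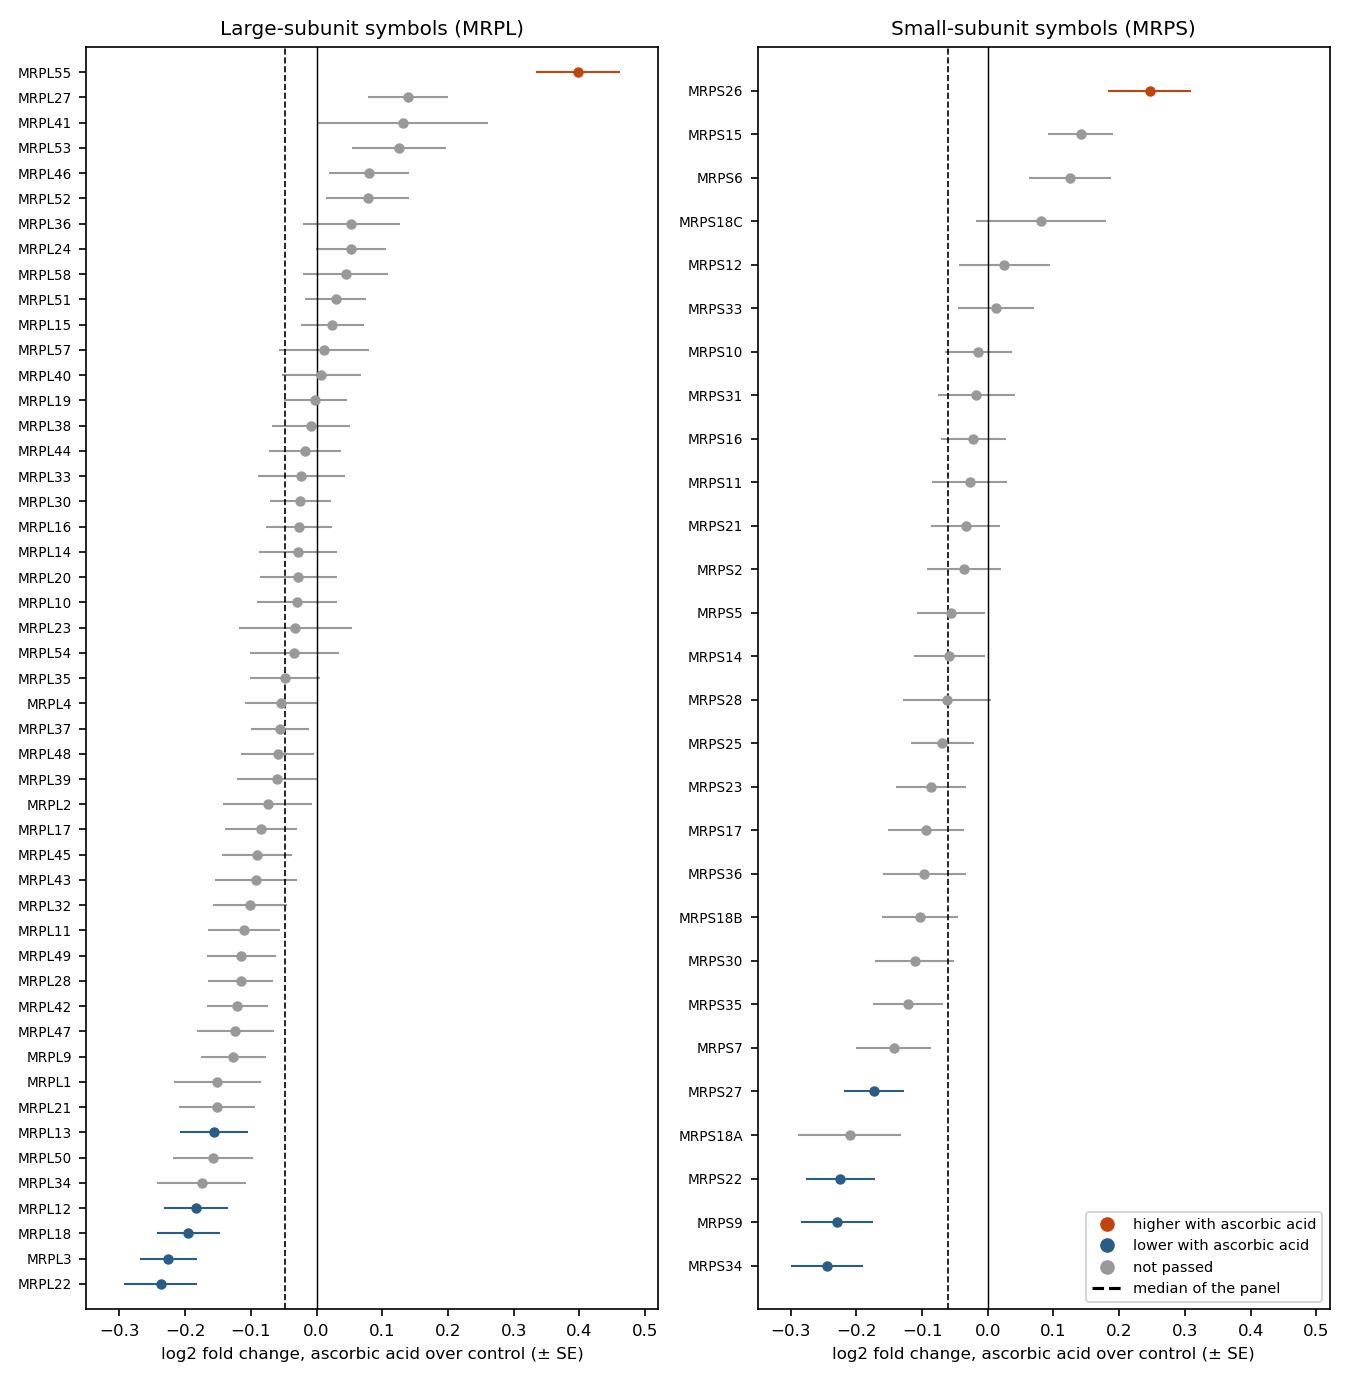
Log2 fold change of ascorbic acid over control (x axis, points, with bars of 1 SE) for 49 MRPL genes (left) and 28 MRPS genes (right), ordered by value; orange marks genes higher with ascorbic acid and blue genes lower at an edgeR adjusted p under 0.05, and the dashed lines are the medians of -0.048 and -0.060. The grey points, which did not pass, lie between -0.21 and 0.14, and MRPL55 and MRPS26 stand at the upper end of the panels.

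Among the members are genes that rose and genes that fell, and the promoters of 5 of them are shown so that both directions can be read at the sequence level: both genes that rose, MRPL3 and MRPS34 as strongly falling members of each subunit, and MRPS9, in which a different motif was found. Each is the 250 bases before the RefSeq start (GRCh38.p14), 5′ to 3′ on the strand of the gene. Capitals mark letters found by a search of both strands. MRPL55 lies at chr1:228109300-228109549 on the minus strand, MRPS26 at chr20:3045802-3046051 on the plus strand, MRPL3 at chr3:131502972-131503221 on the minus strand, MRPS34 at chr16:1773135-1773384 on the minus strand and MRPS9 at chr2:105037819-105038068 on the plus strand.
MRPL55: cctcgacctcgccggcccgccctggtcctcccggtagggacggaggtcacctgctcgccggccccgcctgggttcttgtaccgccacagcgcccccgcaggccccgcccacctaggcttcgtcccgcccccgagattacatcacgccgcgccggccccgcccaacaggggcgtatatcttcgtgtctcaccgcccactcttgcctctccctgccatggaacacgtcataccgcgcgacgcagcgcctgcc
MRPS26: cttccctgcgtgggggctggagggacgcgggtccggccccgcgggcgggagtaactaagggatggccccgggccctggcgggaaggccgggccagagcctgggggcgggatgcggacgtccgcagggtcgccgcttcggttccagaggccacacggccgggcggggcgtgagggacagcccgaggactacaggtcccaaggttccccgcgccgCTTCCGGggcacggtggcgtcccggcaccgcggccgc
MRPL3: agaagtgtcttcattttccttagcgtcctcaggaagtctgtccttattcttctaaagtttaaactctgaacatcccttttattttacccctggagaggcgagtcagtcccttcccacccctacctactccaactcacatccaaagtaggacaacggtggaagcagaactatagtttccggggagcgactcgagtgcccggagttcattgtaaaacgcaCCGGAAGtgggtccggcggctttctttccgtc
MRPS34: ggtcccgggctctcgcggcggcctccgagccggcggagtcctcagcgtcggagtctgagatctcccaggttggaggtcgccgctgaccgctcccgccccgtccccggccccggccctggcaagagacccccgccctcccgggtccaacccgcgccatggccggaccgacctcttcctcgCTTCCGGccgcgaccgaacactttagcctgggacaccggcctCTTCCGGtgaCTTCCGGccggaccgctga
MRPS9: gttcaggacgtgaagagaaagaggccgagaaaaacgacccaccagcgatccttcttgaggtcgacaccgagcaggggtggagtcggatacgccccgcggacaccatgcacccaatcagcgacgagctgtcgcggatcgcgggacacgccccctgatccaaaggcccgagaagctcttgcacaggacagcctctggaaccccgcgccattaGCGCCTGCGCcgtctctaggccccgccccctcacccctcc

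In these sequences the ETS motif CCGGAAG, or its reverse complement, began 37 bases before the start of MRPS26, 32 before that of MRPL3, and 71, 29 and 19 before that of MRPS34. ETS factors such as GABPA, also called NRF2, are known activators of nuclear genes for mitochondrial proteins. The MRPS9 promoter held the NRF1 motif, bound by nuclear respiratory factor 1, 40 bases before its start. All these starts are those of RefSeq, and each sequence shown runs into the gene as placed by GENCODE 29. The marked letters of MRPS26 and MRPS9, and those nearest the start in MRPS34, lie inside the GENCODE gene. The MRPL55 promoter held none of the 3 motifs searched, the other being the YY1 motif AAGATGGCG. It was 71.6% G or C, against 77.2% for MRPS26, 73.6% for MRPS34, 64.8% for MRPS9 and 49.6% for MRPL3. MRPL22 had the YY1 letters 35 bases after its start. A match of this kind is a description of letters and does not show a bound factor.

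RefSeq windows running from 250 bases before to 50 after a start were found for 68 of the 77 members, 52 windows of 42 MRPL genes and 32 windows of 26 MRPS genes. The ETS letters occurred in 36.5% of MRPL windows and 43.8% of MRPS windows, compared with 15.7% of windows of tested genes and 10.3% of all 35116 windows. YY1 letters occurred in 15.4% of MRPL and 12.5% of MRPS windows, compared with 3.15% for tested genes and 1.75% for all windows. NRF1 letters occurred in 15.4% of MRPL and 6.25% of MRPS windows, compared with 9.11% for tested genes and 5.78% for all windows. No matches of different motifs overlapped in the windows of members (0 overlaps). Among the called members with a window, 5 of 10 held ETS letters, in 6 of 14 windows (42.9%).

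Of the 49 MRPL genes, 1 rose and 5 fell, 12.2% called, against 14.3% of all tested genes. The median log2 fold change was -0.048, with quartiles of -0.12 and 0.0076, and 43 genes that did not pass lay between -0.17 and 0.14. Without ascorbic acid replicate 1 the median was -0.084 and without control replicate 3 it was -0.030. With library totals it was -0.0051, with cyclic loess -0.018 and with a filter of 5 CPM in 2 libraries -0.023. Over all tested genes the median was 0.045 with library totals and 0.0037 with that filter, against 0.0030 in the main test. Of the 49 genes, 16 (32.7%) had an unadjusted p under 0.05, against 28.0% of all tested genes. The ascorbic acid libraries were below all controls in 17 MRPL genes (34.7%), above in 3 (6.12%) and overlapping in 29. Among all tested genes 20.4% were below and 22.6% above. Standard errors ran from 0.044 to 0.13 (median 0.058), which limits what could be called among changes of this size.

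MRPL55, the mitochondrial counterpart of a bacterial large-subunit protein, was measured at 48.2 and 47.7 CPM with ascorbic acid and at 34.0, 36.5 and 38.9 CPM in controls. Both ascorbic acid libraries were above every control library, and they were closer to each other than the controls were. Expressed as a log2 fold change this was 0.40 ± 0.064 (SE; edgeR adjusted p = 7.2e-05). Its gene lies on GRCh38 at chr1:228106679-228109312, and shares no exon sequence with another gene in GENCODE 29.

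MRPL3, which in the ribosome lies near the peptidyl transferase centre, had 245 and 243 CPM with ascorbic acid and 289.7, 285 and 281 CPM in controls. The libraries of each group were tightly grouped and did not overlap those of the other group. Its log2 fold change was -0.23 ± 0.044 (SE; edgeR adjusted p = 0.00071). The gene lies at chr3:131462212-131502983.

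MRPL22, a protein that lines the exit path of the new polypeptide, had 64.4 and 58.9 CPM with ascorbic acid and 72.8, 71.8 and 73.5 CPM in controls. All controls were above both ascorbic acid libraries, of which replicate 2 was the lower. A log2 fold change of -0.24 ± 0.055 was obtained (SE; edgeR adjusted p = 0.0038), and without ascorbic acid replicate 2 it was -0.18 (edgeR adjusted p = 0.0551). The gene is at chr5:154941070-154969411. Of 6 members at the polypeptide exit (MRPL17, MRPL22, MRPL23, MRPL24, MRPL45 and MRPL47), MRPL22 was the 1 that passed, and the median of the 6 was -0.087.

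MRPL12, the stalk protein of the factor-binding site that also binds the mitochondrial RNA polymerase, had 194 and 177 CPM with ascorbic acid and 208, 205 and 219.6 CPM in controls. The groups did not overlap, but ascorbic acid replicate 1 lay nearer to the controls than to replicate 2. The log2 fold change was -0.18 ± 0.049 (SE; edgeR adjusted p = 0.011). Without ascorbic acid replicate 2 it was -0.12 (edgeR adjusted p = 0.137) and without control replicate 3 it was -0.15 (edgeR adjusted p = 0.0502). The other stalk members, MRPL10 and MRPL11, had values of -0.029 ± 0.061 and -0.11 ± 0.054 (SE; edgeR adjusted p = 0.798 and 0.184). MRPL12 (chr17:81703357-81707526) shares 68.2% of its exon length with AC139530.2 on the same strand, so its counts are uncertain.

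MRPL18, a protein of the central protuberance, had 117 and 116 CPM with ascorbic acid and 131, 132 and 138 CPM in controls. Every control library was above both others. Its log2 fold change was -0.20 ± 0.048 (SE; edgeR adjusted p = 0.0061), and the gene lies at chr6:159789812-159798436. MRPL13, another large-subunit protein with a bacterial counterpart, had 75.3 and 79.8 CPM with ascorbic acid and 87.7, 85.8 and 85.4 CPM in controls. Its groups did not overlap either, and its log2 fold change was -0.16 ± 0.052 (SE; edgeR adjusted p = 0.042; chr8:120380761-120445402). This call was the least stable of the 11: it was lost in 9 alternatives other than the fold test, among them library totals (-0.11, adjusted p = 0.159) and the fits without control replicate 1 (-0.14, 0.159), control replicate 2 (-0.16, 0.117), control replicate 3 (-0.16, 0.0541) and ascorbic acid replicate 1 (-0.11, 0.238), all adjusted by edgeR.

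All 6 called MRPL genes were among the 30 with a bacterial counterpart (20% called, against 14.3% of all tested genes), 1 higher and 5 lower, with a class median of -0.064. None of the 19 mitochondria-specific MRPL genes passed in edgeR (0 calls, 3 genes at an unadjusted p under 0.05), nor in DESeq2 or limma-voom (0 calls each), and their median was -0.017. The difference between the classes was not tested. Classes and sites were assigned by hand after the values were seen. MRPL58, also known as ICT1, a peptidyl-tRNA hydrolase that is built into the large subunit, had 43.1 and 39.2 CPM with ascorbic acid and 41.8, 37.9 and 39.8 CPM in controls. Its groups overlapped, and its log2 fold change was 0.045 ± 0.065 (SE; edgeR adjusted p = 0.704).

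**Figure D2:**
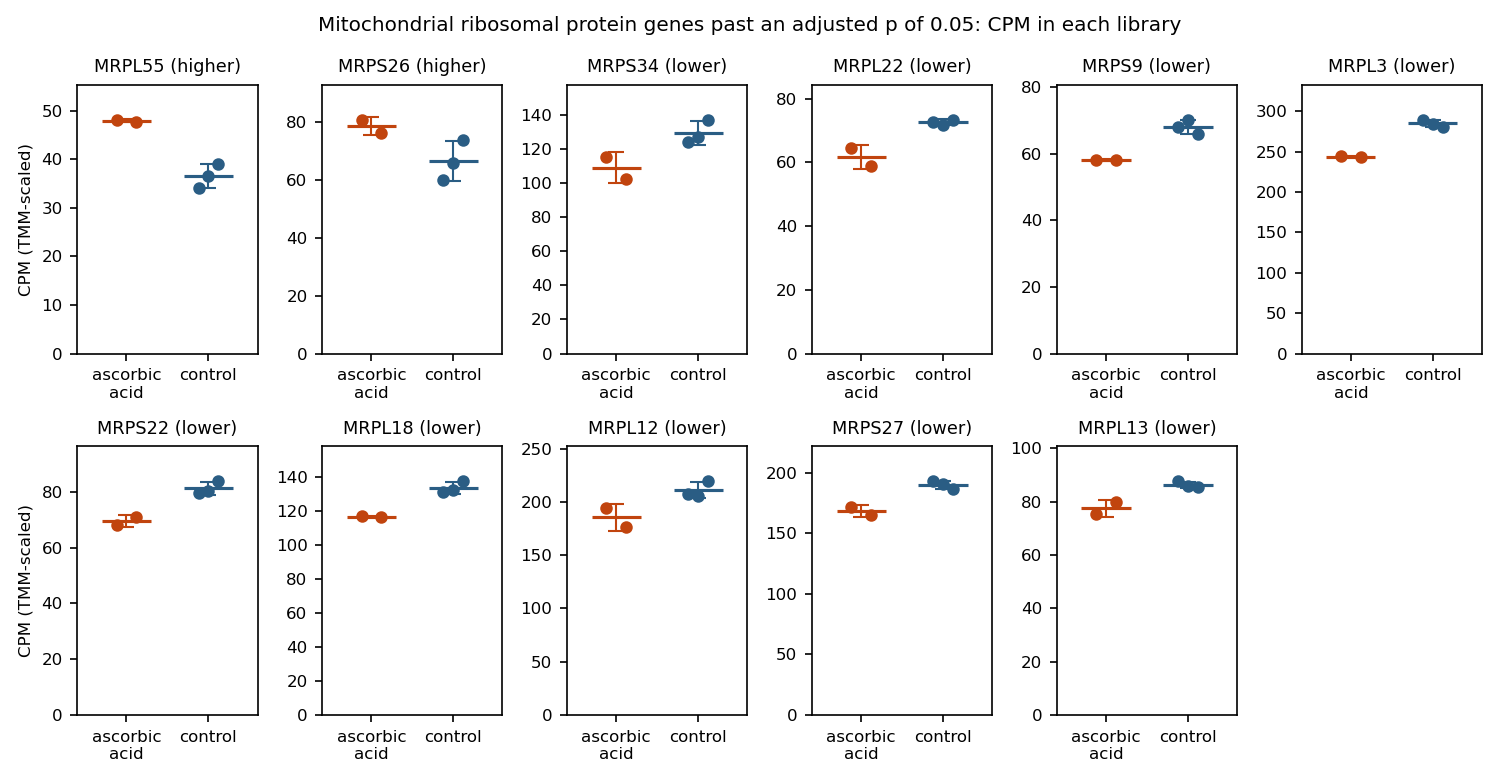
CPM in each library (y axis, TMM-scaled, each panel from 0) for the 11 members past an adjusted p of 0.05, with ascorbic acid on the left and control on the right; points are libraries, horizontal lines group means and bars 1 SD (n = 2 and 3). In each panel the groups do not overlap, MRPL55 and MRPS26 are higher with ascorbic acid and the other 9 are lower.

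Of the 28 MRPS genes, 1 rose and 4 fell, 17.9% called, against 14.3% of all tested genes. Their median log2 fold change was -0.060, with quartiles of -0.11 and -0.016, and 23 genes that did not pass lay between -0.21 and 0.14. At an unadjusted p under 0.05 there were 9 (32.1%), against 28.0% of all tested genes. Calls numbered 3 without control replicate 1 and 3 without ascorbic acid replicate 2, and the median was -0.091 without ascorbic acid replicate 1, -0.018 with library totals, -0.029 with cyclic loess and -0.035 with the 5 CPM filter. Over all tested genes the median was 0.045 with library totals and 0.0037 with that filter, against 0.0030 in the main test. Ascorbic acid libraries were below all controls in 10 MRPS genes (35.7%), above in 3 (10.7%) and overlapping in 15, against 20.4% below and 22.6% above among all tested genes.

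MRPS34, a small-subunit protein found only in mitochondria and needed for the stability of that subunit, had 115 and 102 CPM with ascorbic acid and 124, 127 and 137 CPM in controls. The groups did not overlap, and replicate 2 of ascorbic acid was the lowest library. The log2 fold change was -0.24 ± 0.055 (SE; edgeR adjusted p = 0.0029), and without that library it was -0.17 (edgeR adjusted p = 0.0601). The gene lies at chr16:1771890-1773155.

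MRPS9, a protein of the head of the subunit with a bacterial counterpart, had 57.9 and 58.2 CPM with ascorbic acid and 68.0, 70.2 and 66.0 CPM in controls. The groups did not overlap and the libraries of each lay close together. Its log2 fold change was -0.23 ± 0.055 (SE; edgeR adjusted p = 0.0047; chr2:105037983-105099960). MRPS22, a mitochondria-specific protein, had 67.9 and 71.1 CPM with ascorbic acid and 79.5, 80.4 and 83.8 CPM in controls. Again all control libraries were higher, and the log2 fold change was -0.22 ± 0.053 (SE; edgeR adjusted p = 0.0045; chr3:139005806-139357223).

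MRPS27, a pentatricopeptide repeat protein that binds RNA, had 172 and 165 CPM with ascorbic acid and 193, 191 and 186 CPM in controls. Its groups did not overlap. The log2 fold change was -0.17 ± 0.046 (SE; edgeR adjusted p = 0.010; chr5:72219409-72320646), but leaving out control replicate 1 (-0.16, adjusted p = 0.0591), control replicate 2 (-0.17, 0.0511) or ascorbic acid replicate 2 (-0.15, 0.0560) ended the edgeR call. MRPS26, a mitochondria-specific protein and the small-subunit gene that rose, had 80.8 and 76.3 CPM with ascorbic acid and 59.9, 65.7 and 73.8 CPM in controls. The groups did not overlap, though the highest control came near the lower ascorbic acid library. Its log2 fold change was 0.25 ± 0.063 (SE; edgeR adjusted p = 0.0089; chr20:3045945-3048254), and it lost the call without control replicate 1 (0.18, edgeR adjusted p = 0.0948), ascorbic acid replicate 1 (0.20, 0.141) or ascorbic acid replicate 2 (0.28, 0.0514).

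Of the 15 MRPS genes with a bacterial counterpart 1 passed, MRPS9, and their median was -0.034. Of the 12 classed as mitochondria-specific 1 rose and 3 fell, with a median of -0.11. These include MRPS18A and MRPS18B, paralogs of MRPS18C, which was classed with the bacterial counterparts, and without them the median of the other 10 was -0.099. The share of MRPS genes called was 33.3% in the mitochondria-specific class and 6.67% in the class with a bacterial counterpart, against 14.3% of all tested genes. This order is the reverse of that in the MRPL genes (0 and 20%). The mitochondria-specific class of MRPS genes also holds MRPS30, a large-subunit protein, and MRPS36 is in neither class. The difference between these classes was not tested. MRPS15, with a bacterial counterpart, missed the threshold: it had 108 and 106 CPM with ascorbic acid and 96.7, 94.2 and 101 CPM in controls. The groups did not overlap, the log2 fold change was 0.14 ± 0.050 (SE; edgeR adjusted p = 0.0535), and 10 of 19 alternatives called it. MRPS12, a protein of the decoding centre, had 37.4 and 36.4 CPM with ascorbic acid and 35.05, 33.8 and 40.1 CPM in controls. Its groups overlapped, with a log2 fold change of 0.025 ± 0.069 (SE; edgeR adjusted p = 0.849), and it shares 16.3% of its exon length with SARS2.

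A few MRPS symbols encode proteins that are not in the small subunit. MRPS18A, MRPS18B and MRPS18C are paralogs, and the proteins of MRPS18B and MRPS18C belong to the small subunit and that of MRPS18A to the large one. MRPS18A had 18.5 and 17.6 CPM with ascorbic acid and 20.002, 20.8 and 21.9 CPM in controls. The groups did not overlap, but the log2 fold change of -0.21 ± 0.078 did not pass (SE; edgeR adjusted p = 0.0688). It shares 47.04% of its exon length with RSPH9 on the opposite strand. MRPS18B and MRPS18C had log2 fold changes of -0.10 ± 0.058 and 0.081 ± 0.099 (SE; edgeR adjusted p = 0.252 and 0.645). MRPS30, whose protein also sits in the large subunit, had -0.11 ± 0.060 (SE; edgeR adjusted p = 0.228), and MRPS36, whose protein is a subunit of the 2-oxoglutarate dehydrogenase complex, had -0.096 ± 0.063 (SE; edgeR adjusted p = 0.334). Since none of MRPS18A, MRPS30 and MRPS36 was called in this test, its calls per subunit do not depend on where they are placed. With GC and length trends removed from each library, MRPS18A was called, and it is counted there with the MRPS genes. Its log2 fold change was then -0.22 with or without centring (edgeR adjusted p = 0.0216 and 0.0224). With MRPS18A and MRPS30 in the large subunit and MRPS36 left out, the medians were -0.053 for MRPL and -0.056 for MRPS.

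To compare levels between genes, mean CPM was divided by the length in kb of the GENCODE principal transcript. MRPL37 led the large subunit with 213 CPM per kb, followed by MRPL12 with 195 and MRPL3 with 157. MRPL37 is a mitochondria-specific protein, and had 317 and 301 CPM with ascorbic acid and 326, 319 and 319 CPM in controls (log2 fold change -0.056 ± 0.044, SE; edgeR adjusted p = 0.434). The lowest was MRPL42 at 12.1 CPM per kb, whose transcript of 15582 nt divides a level of 175 and 183 CPM with ascorbic acid and 194, 199.8 and 189 CPM in controls (-0.12 ± 0.046, SE; edgeR adjusted p = 0.0797). In the small subunit MRPS34 led with 118 CPM per kb, then MRPS15 with 101 and MRPS21 with 84.1, and MRPS18C was lowest with 5.90 (MRPS18C shares 40.2% of its exon length with ABRAXAS1). Medians were 46.4 CPM per kb for MRPL and 41.9 for MRPS, with a range of 17.7-fold and 20.1-fold. Of these, MRPL12, MRPL3 and MRPS34 are the genes that fell in the test above.

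**Figure D3:**
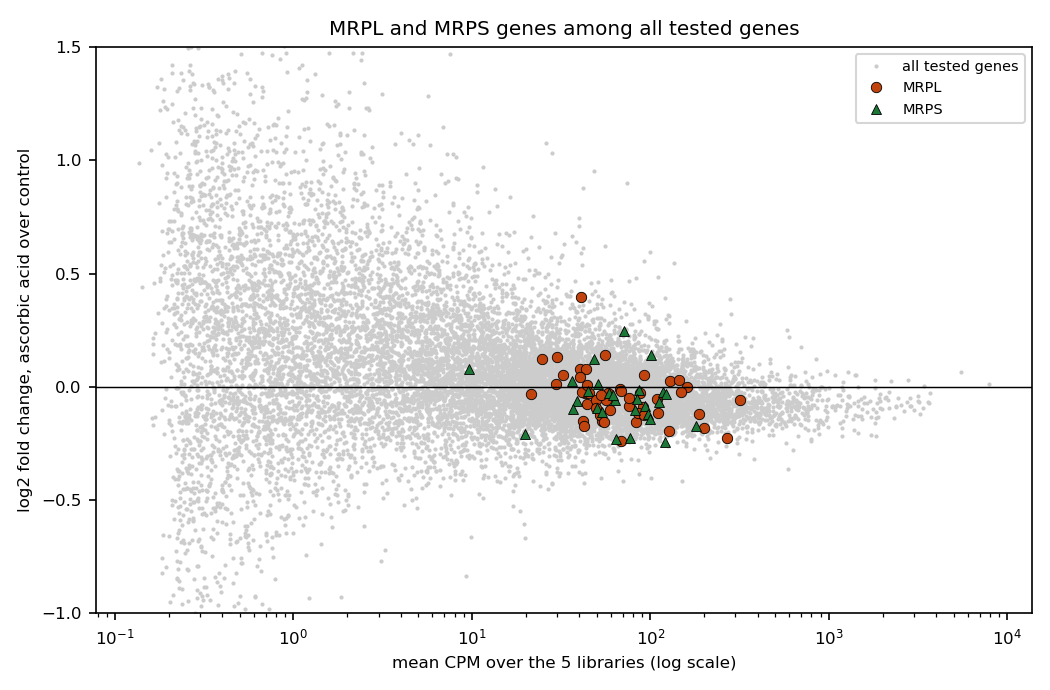
Log2 fold change of ascorbic acid over control (y axis) against mean CPM over the 5 libraries (x axis, log scale) for all 15271 tested genes (grey), MRPL genes (orange circles) and MRPS genes (green triangles); genes beyond -1 and 1.5 are not drawn. The members lie between 9.69 and 316 CPM, where most genes are near 0, and more of them lie below 0 (58) than above (19).

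Summed over the 49 genes, MRPL levels were 3974 and 3851 CPM with ascorbic acid and 4100.3, 4070.0 and 4139.5 CPM in controls. MRPS levels summed to 2064 and 1985 CPM with ascorbic acid and 2123, 2097 and 2149.6 CPM in controls. Both ascorbic acid sums were below every control sum, a difference of -4.65% for MRPL (3912 ± 87.5 and 4103 ± 34.8 CPM, SD, n = 2 and 3) and of -4.66% for MRPS (2024 ± 55.8 and 2123 ± 26.4 CPM). The ratio of the MRPL sum to the MRPS sum was 1.93 ± 0.010 with ascorbic acid and 1.93 ± 0.0077 in controls (SD, n = 2 and 3). With library totals in place of TMM the median log2 fold change of all tested genes moved from 0.0030 to 0.045. The differences in the sums were then -1.81 and -1.82%, and the MRPS sums of the groups overlapped. Without ascorbic acid replicate 2 they were -3.14 and -2.81%. The log2 fold change did not order strongly with a gene's properties: over the 77 members its Spearman correlation was -0.31 with level, 0.20 with GC content and -0.18 with transcript length. These points share the same 5 libraries.

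**Figure D4:**
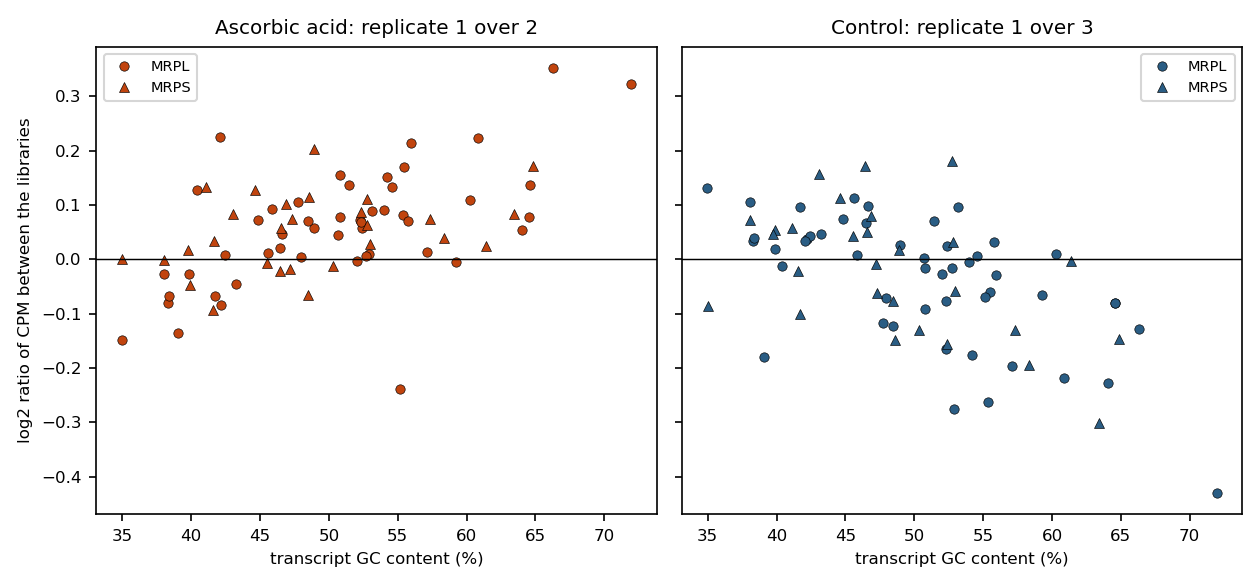
Log2 ratio of CPM between libraries of the same group (y axis) against GC content of the transcript in percent (x axis), with ascorbic acid replicate 1 over 2 on the left and control replicate 1 over 3 on the right; circles are MRPL and triangles MRPS genes. The ascorbic acid ratio goes up and the control ratio goes down with GC content, with Spearman correlations of 0.50 and -0.56 over 77 genes.

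The libraries of each group differed among the members with GC content. The log2 ratio of ascorbic acid replicate 1 to 2 had a Pearson correlation of 0.53 with it, and the ratio of control replicate 1 to 2 one of -0.25, of 1 to 3 one of -0.58 and of 2 to 3 one of -0.59 (77 genes each, sharing libraries). Removing GC and length trends from each library raised the number of calls: 13 MRPL genes (2 higher, 11 lower) and 9 MRPS genes (3 higher, 6 lower) then passed, against 20.8% of tested genes (10.6% higher and 10.3% lower). The 22 members called there include all 11 called without it and 11 more. MRPL46 and MRPS11, whose start sites lie 34 bp apart on chromosome 15 on opposite strands, were chosen after their values were seen. They had log2 fold changes of 0.080 ± 0.061 and -0.028 ± 0.057 (SE; edgeR adjusted p = 0.416 and 0.797).

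Genes of the same pathway gave the context. The 5 mitoribosomal proteins with other symbols (DAP3, PTCD3, CHCHD1, AURKAIP1 and GADD45GIP1) had 0 calls in edgeR, 0 in DESeq2 and 0 in limma-voom, 0 at an unadjusted p under 0.05 and a median log2 fold change of -0.023. DAP3, a GTP-binding protein of the small subunit, averaged 158 ± 1.42 CPM with ascorbic acid and 156 ± 1.04 CPM in controls (SD, n = 2 and 3; log2 fold change 0.018 ± 0.045, edgeR adjusted p = 0.838). Of 31 assembly factors 1 rose and 1 fell (median -0.056). FASTKD2, which binds the large ribosomal RNA of mitochondria, averaged 76.5 ± 3.49 CPM with ascorbic acid and 65.4 ± 3.79 CPM in controls (0.23 ± 0.056, edgeR adjusted p = 0.0071). MRM2, a methyltransferase of the same RNA, averaged 51.2 ± 0.851 CPM with ascorbic acid and 58.3 ± 3.42 CPM in controls (-0.19 ± 0.059, edgeR adjusted p = 0.028). The assembly list thus had 1 member in each direction, 6.45% called, against 14.3% of all tested genes. Leaving out ascorbic acid replicate 2 ended the call of FASTKD2 (0.17, edgeR adjusted p = 0.0903), and leaving out control replicate 1 (-0.13, 0.204) or ascorbic acid replicate 1 (-0.18, 0.113) that of MRM2.

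Of 22 tested translation factors (24 listed) 1 rose and 1 fell, with a median of -0.034. This was 9.09% called, against 14.3% of all tested genes. TUFM, the mitochondrial elongation factor that brings aminoacyl-tRNA, averaged 339 ± 19.4 CPM with ascorbic acid and 305 ± 10.3 CPM in controls (0.15 ± 0.046, edgeR adjusted p = 0.026). SLIRP, which stabilises mitochondrial messages, averaged 60.1 ± 0.682 CPM with ascorbic acid and 68.2 ± 5.38 CPM in controls (-0.18 ± 0.060, edgeR adjusted p = 0.042), and its call was lost in 11 alternatives other than the fold test, among them the fits without control replicates 2 (-0.17) and 3 (-0.13) or ascorbic acid replicates 1 (-0.19) and 2 (-0.18). TUFM lost its call without control replicate 1 (0.16, edgeR adjusted p = 0.0619), control replicate 2 (0.13, 0.136) or ascorbic acid replicate 1 (0.092, 0.269). Among 12 genes of mitochondrial DNA transcription and maintenance 1 rose, TOP1MT, a mitochondrial topoisomerase (0.19 ± 0.063, edgeR adjusted p = 0.039), a call lost with any library but control replicate 3 left out (0.17 to 0.20, edgeR adjusted p from 0.0841 to 0.144). The share called in that list was 8.33%, against 14.3% of all tested genes. Of 12 regulators of mitochondrial biogenesis 0 passed in edgeR, DESeq2 and limma-voom, with 0 at an unadjusted p under 0.05. The 80 cytosolic ribosomal proteins gave 1 rise and 4 falls (median -0.050), 6.25% called. The 77 nuclear subunits of the respiratory chain gave 0 rises and 6 falls (median -0.073), 7.79% called. Of all tested genes 14.3% were called. Falls made up 5 and 7.79% of these lists, against 5.76% of all tested genes, and rises 1.25 and 0%, against 8.53%. Both lists, like MRPL and MRPS, had most values below 0, 61 of 80 and 57 of 77. Of 15 mitochondrially encoded genes listed, 0 had a row in the table used here, so the products these ribosomes make were not analysed.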

How the data were processed

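The authors deposited whole-number read counts for 28278 gene symbols in 5 libraries. Per the labels, the RNA was selected with mRNA capture beads. The submitters' processing notes name hg38 (GRCh38) and the tools Trimmomatic 0.39, STAR, featureCounts and DESeq2. How strands and multiply mapping reads were treated is not given in the sources used here. Counts of overlapping genes, antisense pairs, paralogs and genes with pseudogenes are therefore uncertain (40 members overlap another gene's exons and 34 have a pseudogene named after them in GENCODE 29). Column names were matched to sample titles ("con" to control, "vc" to ascorbic acid). Positions, length and GC content came from GENCODE 29, to which 26216 symbols matched. Promoter sequences came from RefSeq.

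After filterByExpr and TMM scaling, the quasi-likelihood test of edgeR 4.0.16 (R 4.3.3; robust, two-sided, no covariate) compared the groups, and Benjamini-Hochberg adjustment ran over 15271 genes (threshold 0.05). The test was tried on simulated counts with known folds. These had the same variation for every gene and no GC trends, unlike the libraries here, so the trial does not show how the test performs on them. The common coefficient of variation that edgeR fitted beyond counting was 4.60%, which may be partly or wholly technical, and same-group libraries exceeded counting noise (chi-square per degree of freedom 4.10 to 7.58). Alternatives used DESeq2 1.42.0, limma 3.58.1 (voom and cyclic loess) and mgcv 1.9.3 for GC and length trends, which covered 97.0% of tested genes. Fits on a lone ascorbic acid library assume that it varies as the controls do.

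Members and gene lists were chosen with earlier results of these data known. The members named are up to 6 called genes per subunit and direction, the 3 highest and 1 lowest per subunit by CPM per kb, and a panel of MRPL12, MRPL58, MRPS12, MRPS18A, MRPS18B, MRPS18C, MRPS30 and MRPS36. From the other lists, up to 3 called genes by smallest p or else the 2 of highest level were taken. The value of 1 marker gene is not reported here.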

Additional observations from a re-analysis of the deposited data

How the results depend on the processing

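Both subunit medians and the 11 called members kept their direction in all alternatives run. The signs of single members were followed only for those chosen by the rule for naming members. Of these, MRPL37, MRPL58, MRPS12 and MRPS21, which did not pass, changed sign in some alternatives, and members outside the rule may have done so too. DESeq2, limma-voom, DESeq2 size factors, upper-quartile factors, both other filters (5 CPM in 2 libraries, or none), no robust prior and halved counts left the numbers of called genes within 1.5 times. By direction, the 5 CPM filter left 1100 higher and 542 lower genes, and gave medians of -0.023 (MRPL) and -0.035 (MRPS). MRPL3, MRPL18, MRPL55, MRPS9 and MRPS22 kept their calls in all alternatives but the test against a fold of 1.2. That test called 286 genes, 0 MRPL (1 at an unadjusted p under 0.05) and 0 MRPS (0). Library totals gave medians of -0.0051 (MRPL) and -0.018 (MRPS), sums lower by 1.81% and 1.82% (values -1.81 and -1.82), 2 higher and 4 lower calls in each subunit, and 1712 higher against 389 lower genes (main 1303 and 879; DESeq2 922 and 902). With library totals the median over all tested genes was 0.045, against 0.0030 in the main test. Cyclic loess called 1447 genes, with medians of -0.018 and -0.029, and lost MRPL12, MRPL13 and MRPS27. With GC and length trends removed, 13 MRPL and 9 MRPS genes passed with centring and 12 and 9 without. The causes were not tested. With 1 library left out, 1180 to 2047 genes passed, 5 to 7 MRPL and 3 to 6 MRPS genes, with medians of -0.084 to -0.030 and -0.091 to -0.044, and sums of -6.16 to -3.14% and -6.52 to -2.81%; the lowest gene count was without control replicate 1, and 3 MRPS calls were left without it or without ascorbic acid replicate 2.

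The replicate numbers of the labels were not shown to pair the libraries (correlation of deviations 0.089, 2 pairs). With the replicate block, 1880 genes passed, 6 MRPL and 6 MRPS, with medians of -0.031 and -0.072; MRPL13 was lost (adjusted p = 0.0537) and MRPL42 and MRPS15 were gained. Standard errors of 0.044 to 0.13 limit the changes that could be called.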

Other observations

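Of the rows beside the members that were tested, 0 passed in edgeR. Log2 fold changes were -0.22 for the antisense row MRPL20-AS1 (edgeR adjusted p = 0.095), for the pseudogene row MRPL45P2 -0.38 (edgeR adjusted p = 0.076) and for MRPS31P5 -0.097 (edgeR adjusted p = 0.67). The row for the read-through of URGCP and MRPS24 had 0 counts in every library.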
